A study of Mus musculus with 8 samples.

Results

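Amino acids, and the neurotransmitters made from them, cross membranes through proteins of the solute carrier (SLC) families. The mRNAs of 43 genes of 9 such families (SLC1, SLC3, SLC6, SLC7, SLC17, SLC18, SLC36, SLC38 and SLC43) were listed among the 16974 genes measured in Neuro2A (N2A) cells, a mouse neuroblastoma line of neuronal character. A gene belonged to the set if its symbol was that of 1 of these families, and no measured value entered this rule. The rule also took in Slc7a6os, which is named for lying on the strand opposite Slc7a6 and encodes no transporter. Of the 43 genes, 42 were listed in all 8 libraries, and 26 had a mean of at least 1 FPKM (sequenced fragments per kilobase of transcript and per unit of library size, so that levels can be compared between genes). These 26 detected genes, Slc7a6os included, are called carriers for short. The cells were starved for 16 h in serum-free medium with albumin and then received either 2 µM HU210, an agonist of the cannabinoid 1 receptor (CB1R), dissolved in DMSO, or DMSO without drug. Each of the 4 time points of 2, 4, 6 and 8 h had 1 library with HU210 and 1 with DMSO, and a library was made from mRNA pooled from 2 to 3 independent experiments. All 8 groups share the starvation, the line and the solvent. Differences within a time point therefore rest on 1 pair of libraries without a replicate check, and no test was made on them.

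Plasma membrane carriers of the SLC1, SLC6, SLC7, SLC38 and SLC43 families bring amino acids into the cell. Some of the SLC7 proteins reach the surface only when joined to a heavy chain of the SLC3 family, while carriers such as those of the SLC36 family sit in the lysosomal membrane, where amino acids are sensed by the mTORC1 kinase. In neurons, related carriers take released transmitter back up from the synapse, and the SLC17 and SLC18 families include carriers that load it into vesicles. Cells that run short of amino acids make more of the transcription factor ATF4, which is known to raise the mRNAs of several importers.

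The labelled cell type was checked against marker genes. Of 10 markers of sympathetic neuroblastoma, 8 were listed and all 8 had a mean of at least 1 FPKM. Stmn2 had the highest mean, 145 FPKM. The noradrenergic transcription factors Hand2 and Phox2a had 84.8 and 41.1 FPKM, but the noradrenergic enzymes Th and Dbh had 2.00 and 1.14 FPKM. The 8 markers summed to 326 to 405 FPKM in a library. Phox2a, at 48.1 FPKM with DMSO and 29.1 FPKM with HU210, was the 1 marker past 1.5-fold, at 4 h. Of all genes, 6.46% were lower by 1.5-fold at 4 h. The 2 listed of 5 astrocyte markers summed to at most 0.768 FPKM in a library. The 2 listed of 3 immune cell markers summed to at most 0.453 FPKM. Those of oligodendrocytes, 3 genes with Mbp at 4.33 FPKM, summed to 5.49 to 6.85 FPKM. The 2 listed of 3 fibroblast markers summed to 1.31 to 1.53 FPKM. Read counts per gene were not used, so the depth behind each FPKM is unknown. In each library 11328 to 11444 genes had at least 1 FPKM. The 4 h libraries lay farthest from the others: the median absolute deviation of a gene from its median over the 8 libraries was 0.139 on the log2 scale with DMSO and 0.108 with HU210 at 4 h, against 0.0684 to 0.0936 in the other 6 libraries. Fewer cells with a given mRNA and less of that mRNA per cell cannot be told apart in such bulk libraries.

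N2A cells expressed a small set of importers at high levels and most of the listed transmitter carriers at very low ones. Of the 26 genes with a mean of at least 1 FPKM, 2 exceeded 100 FPKM, 16 lay between 10 and 100 FPKM and 8 between 1 and 10 FPKM. The same 26 were counted when the DMSO libraries alone were averaged. The SLC38 family, whose members carry glutamine and other small neutral amino acids, had 6 of its 9 listed genes among them and a summed mean level of 273 FPKM. The SLC7 family followed with 7 of 10 genes, Slc7a6os included, and 237 FPKM, then SLC3 with 1 of 2 genes and 217 FPKM and SLC1 with 2 of 4 genes and 213 FPKM. Sums were far lower for SLC6 (72.8 FPKM, 4 of 8 genes), SLC36 (27.1 FPKM, 2 of 3 genes), SLC18 (20.9 FPKM, both genes), SLC17 (4.93 FPKM, 1 of 3 genes) and SLC43 (2.71 FPKM, 1 of 2 genes). Of the 17 genes below 1 FPKM, 14 had means under 0.3 FPKM. The 3 that came closer to 1 FPKM were Slc43a1, a carrier of large neutral amino acids (mean 0.889 FPKM, 0.741 to 1.12 FPKM), Slc17a9 (mean 0.757 FPKM) and Slc38a5 (mean 0.508 FPKM). Among those under 0.3 FPKM were Slc38a3 (0.165 FPKM), Slc7a15 (0.123 FPKM), Slc36a2 (0.109 FPKM) and Slc38a11 (0.0354 FPKM).

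**Figure D1:**
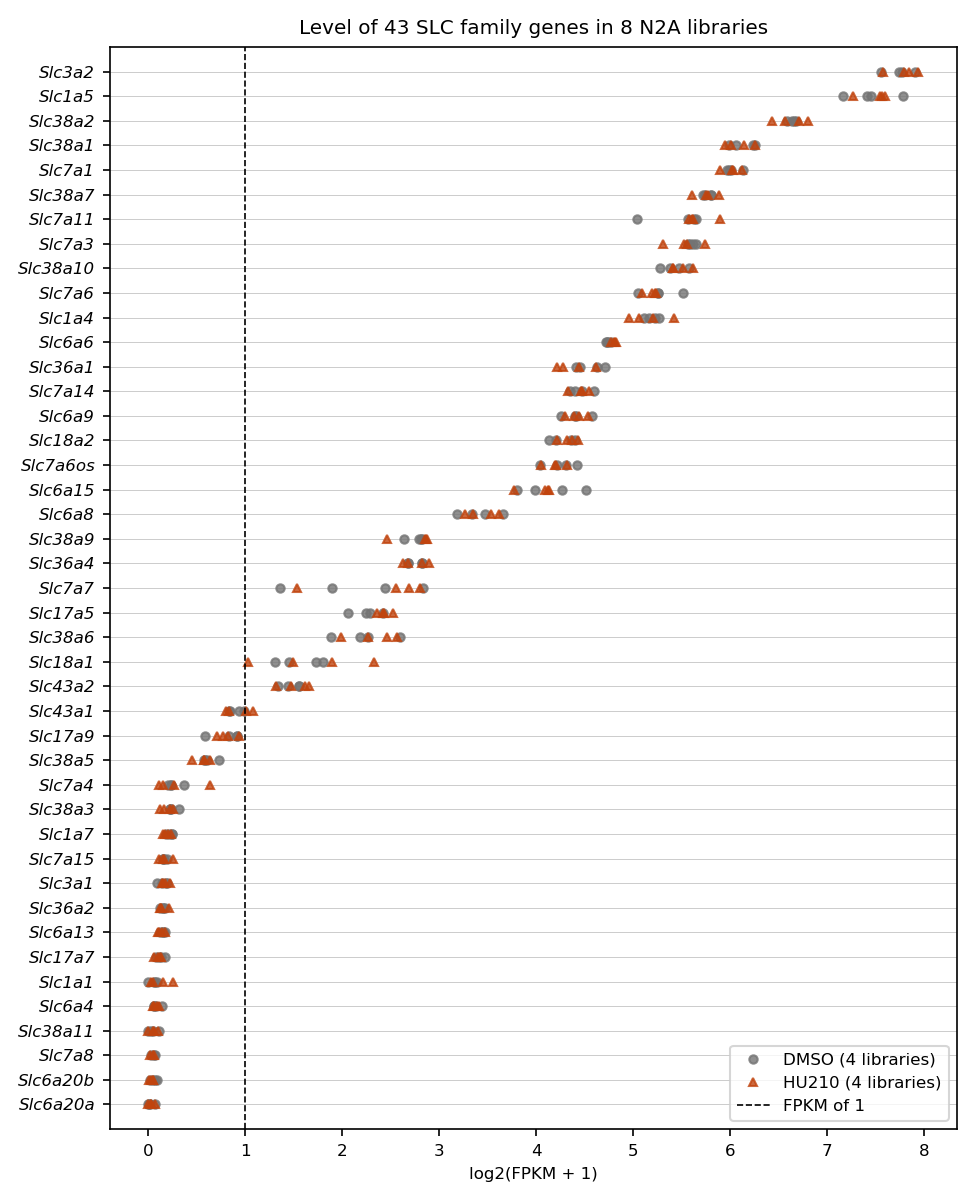
Level of the 43 genes in each of the 8 libraries, with log2(FPKM + 1) on the horizontal axis and genes ordered from the top by their mean. Points stand for single libraries (DMSO or HU210) and the dashed line marks 1 FPKM. Slc3a2 and Slc1a5 lie at the top with means of 217 and 178 FPKM, the means of 26 genes lie above the line, and the points of most genes nearly coincide, those of Slc7a7 and Slc18a1 being spread.

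Among the 26 detected genes the levels were steady across libraries. In 20 of them the highest library was within 1.5-fold of the lowest, and 2, Slc7a7 and Slc18a1, spanned more than 2-fold. The SD of log2(FPKM + 1) over the 8 libraries ranged from 0.0377 for Slc6a6 to 0.588 for Slc7a7, with a median of 0.135, beside a median of 0.145 over all 11311 genes with a mean of at least 1 FPKM in 8 libraries.

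The heavy chain Slc3a2 (ENSMUSG00000010095, mm9 chromosome 19, 8781372 to 8797859), the partner that carries several SLC7 light chains to the plasma membrane, was the most abundant of the 43 mRNAs. Its level was 218, 212, 186 and 238 FPKM with DMSO and 228, 220.0, 189 and 244 FPKM with HU210 at 2, 4, 6 and 8 h. Both 6 h libraries were the lowest and both 8 h libraries the highest, and the groups overlapped. Of 8 light chains in the list of heteromeric carriers, 4 were listed (Slc7a6, Slc7a7, Slc7a8 and Slc7a11) and Slc7a5 was among those not analysed here. Slc7a11, the cystine and glutamate exchanger that supplies cystine for glutathione, led the light chains with a mean of 47.0 FPKM. Slc7a6 and Slc7a7, which exchange cationic for neutral amino acids, followed with means of 36.6 and 4.13 FPKM, and Slc7a8, listed at 3 of the 4 time points, had a mean of 0.0331 FPKM. The level of Slc3a2 divided by the summed level of Slc7a6, Slc7a7 and Slc7a11 was 2.49, 2.67, 2.21 and 2.65 with DMSO and 2.45, 2.46, 2.13 and 2.76 with HU210 at the successive time points, so the heavy chain exceeded these 3 light chains in every library. The other heavy chain, Slc3a1, had a mean of 0.119 FPKM.

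Glutamine and small neutral amino acids had several abundant carriers. Slc1a5 (ENSMUSG00000001918, mm9 chromosome 7, 17366695 to 17383623), an exchanger of glutamine and other neutral amino acids, stood at 168, 143, 219 and 174 FPKM with DMSO and at 152, 185, 188 and 193 FPKM with HU210 at 2, 4, 6 and 8 h. Its lowest and highest libraries were both DMSO libraries, those of 4 h and 6 h. Slc38a2 (mm9 chromosome 15, 96517825 to 96530129), a sodium-coupled carrier known to increase when amino acids are scarce, had 98.5, 102, 95.2 and 99.8 FPKM with DMSO and 93.4, 85.4, 103 and 110.1 FPKM with HU210. The HU210 libraries of Slc38a2 thus enclosed all 4 DMSO values. Its close relative Slc38a1 had a mean of 68.3 FPKM, Slc38a10 a mean of 42.95 FPKM and Slc38a6 a mean of 3.90 FPKM. Slc1a4 (mm9 chromosome 11, 20202183 to 20232716), which exchanges alanine, serine and cysteine, had 34.7, 37.5, 33.6 and 36.4 FPKM with DMSO and 30.1, 32.3, 35.9 and 41.8 FPKM with HU210. With HU210 each later time point of Slc1a4 was higher than the one before, while the DMSO values had no such order. Slc43a2 (mm9 chromosome 11, 75345196 to 75391077), a carrier of branched-chain and other large neutral amino acids, was at 1.53, 1.72, 1.93 and 1.93 FPKM with DMSO and 1.49, 1.78, 2.07 and 2.15 FPKM with HU210. The 2 h libraries of Slc43a2 were the lowest in both groups.

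Cationic amino acids had 2 carriers at similar levels. Slc7a1, the widely expressed arginine and lysine carrier, had 61.7, 62.2, 69.0 and 63.3 FPKM with DMSO and 64.0, 58.6, 64.1 and 68.6 FPKM with HU210. Slc7a3, a related carrier found mainly in brain, had 46.4, 47.1, 48.1 and 48.9 FPKM with DMSO and 38.5, 46.0, 45.0 and 52.2 FPKM with HU210. The DMSO values of Slc7a3 lay within a narrow band, and the lowest and highest libraries were those of HU210 at 2 h and 8 h. Slc7a6os, whose annotated span does not overlap that of Slc7a6, had a mean of 17.7 FPKM. Slc7a14, a less studied relative, had a mean of 20.9 FPKM, and Slc7a4 reached 0.555 FPKM in the 2 h HU210 library and was lower in the other 7.

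In the SLC6 family the most abundant gene was Slc6a6, the taurine transporter, with 25.5, 25.8, 25.4 and 26.3 FPKM with DMSO and 27.0, 26.8, 27.3 and 26.3 FPKM with HU210. Its highest library exceeded its lowest by 1.08-fold. The HU210 values of Slc6a6 lay above the DMSO values at 2 h, 4 h and 6 h, and the pair at 8 h coincided at 26.3 FPKM. Slc6a8, the creatine transporter, had a mean of 9.82 FPKM. The proline and imino acid carriers Slc6a20a and Slc6a20b, near-identical copies between which reads may be divided, had means of 0.0191 and 0.0317 FPKM.

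Only some of the listed transmitter carriers were detected, and those not listed have no level here. Of 14 plasma membrane carriers of transmitters in the list drawn up for them, 5 were listed, and 1 of these, the glycine carrier Slc6a9, had at least 1 FPKM. Slc6a9 had 20.1, 18.1, 20.3 and 22.9 FPKM with DMSO and 20.7, 18.6, 19.9 and 22.1 FPKM with HU210, so both groups were lowest at 4 h and highest at 8 h. The other 4, the glutamate carriers Slc1a1 and Slc1a7, the GABA carrier Slc6a13 and the serotonin carrier Slc6a4, were below 0.5 FPKM in all 8 libraries. Slc1a1 had a mean of 0.0626 FPKM (0 to 0.190 FPKM), Slc1a7 of 0.152 FPKM (0.110 to 0.186 FPKM), Slc6a13 of 0.102 FPKM (0.0705 to 0.129 FPKM) and Slc6a4 of 0.0577 FPKM (0.0329 to 0.0990 FPKM). The dopamine and noradrenaline carriers Slc6a3 and Slc6a2 were not analysed here.

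Of 7 vesicular carriers in the list, 4 were listed and 2, those that load monoamines, had at least 1 FPKM. Slc18a2 (ENSMUSG00000025094, mm9 chromosome 19, 59335368 to 59370502), the monoamine carrier of neurons, had 17.4, 20.0, 19.5 and 16.5 FPKM with DMSO and 17.5, 18.9, 20.6 and 19.6 FPKM with HU210. The 8 h DMSO library was the lowest of the 8, and the groups overlapped. Slc18a1 (ENSMUSG00000036330, mm9 chromosome 8, 71561610 to 71613134), its counterpart in neuroendocrine cells, had 1.73, 2.48, 1.47 and 2.32 FPKM with DMSO and 1.04, 1.81, 4.03 and 2.73 FPKM with HU210. For Slc18a1 the HU210 library was the lower of the pair at 2 h and 4 h and the higher at 6 h and 8 h, and HU210 held both the lowest and the highest value. Slc17a7, which loads glutamate, had a mean of 0.0800 FPKM (0.0396 to 0.125 FPKM) and Slc17a9, which loads ATP, a mean of 0.757 FPKM (0.495 to 0.915 FPKM). Slc17a6, Slc17a8 and Slc18a3 were not analysed here. Of 19 enzymes that make or degrade transmitters or related carriers that are not members, 15 were listed and 10 detected. The enzymes of monoamine synthesis were low, with tyrosine hydroxylase (Th) at 2.00 FPKM, Tph2 at 2.61 FPKM, Dbh at 1.14 FPKM and Ddc at 0.990 FPKM, while Gad1 and Gad2, which make GABA, and the vesicular GABA carrier Slc32a1 had means of 0.0360, 0.0181 and 0.0513 FPKM.

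All 5 listed carriers of the lysosomal list were detected. Slc38a7, a lysosomal glutamine carrier, was the most abundant of them with a mean of 53.1 FPKM. Slc36a1 (mm9 chromosome 11, 55017852 to 55049832), a proton-coupled exporter of small amino acids, had 23.8, 25.2, 20.2 and 20.9 FPKM with DMSO and 20.7, 17.5, 23.6 and 18.4 FPKM with HU210. HU210 was the lower of the pair at 2 h, 4 h and 8 h and the higher at 6 h. Slc17a5 (mm9 chromosome 9, 78384295 to 78435848), the sialic acid exporter, had 3.87, 3.16, 3.75 and 4.36 FPKM with DMSO and 4.12, 4.35, 4.73 and 4.37 FPKM with HU210. The HU210 value of Slc17a5 was the higher at each time point, though barely at 8 h, and the ranges of the groups overlapped. Slc38a9, the arginine sensor of mTORC1, had a mean of 5.81 FPKM and Slc36a4 one of 5.76 FPKM.

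Few of these mRNAs differed by 1.5-fold or more between HU210 and DMSO, the fold used to name a gene at a single time point. Changes are given as log2[(FPKM with HU210 + 1)/(FPKM with DMSO + 1)], called the log2(fold change), which understates the change of genes near or below 1 FPKM. At 2 h 0 of 43 genes passed 1.5-fold, beside 0.691% of all genes that were higher and 1.33% that were lower. At 4 h 1 of 42 genes, Slc7a7, was higher and 1, Slc6a15, was lower, beside 2.16% and 6.46% of all genes. At 6 h Slc18a1 was higher and no gene was lower, beside 1.58% and 0.837%, and at 8 h 0 genes passed in either direction, beside 1.16% and 0.629%. Each of these counts is of at most 1 gene.

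**Figure D2:**
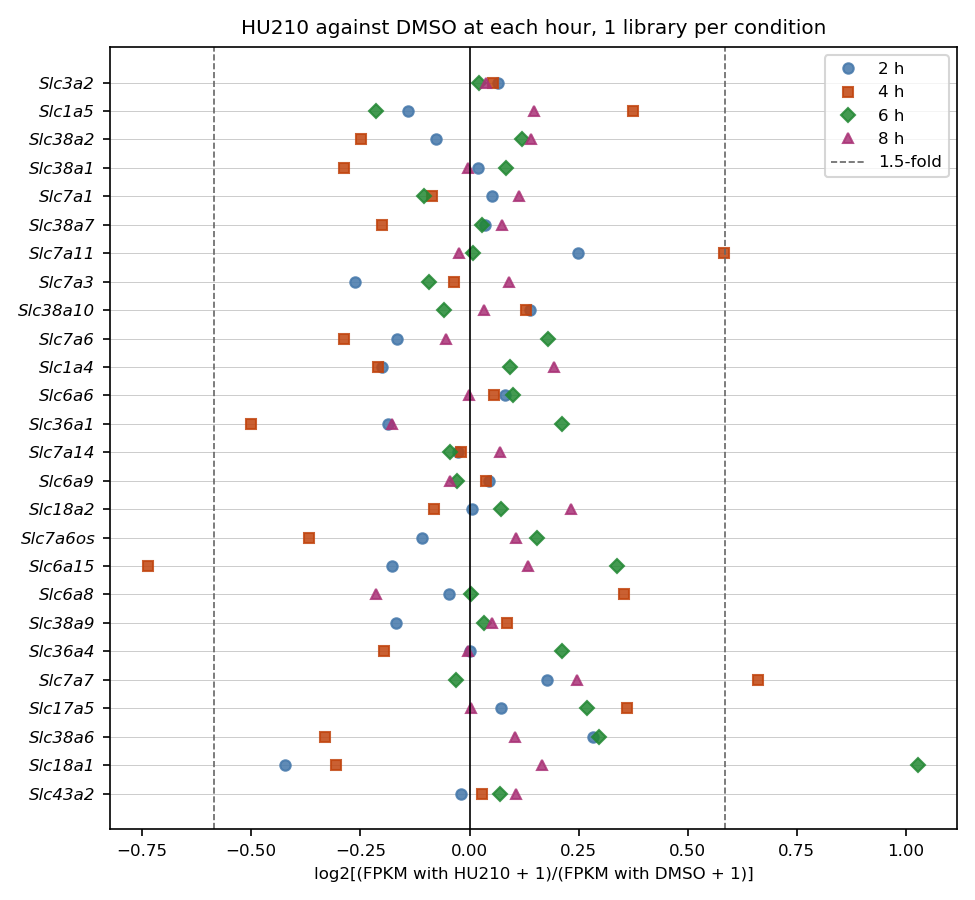
Log2(fold change) of HU210 against DMSO for the 26 detected genes at 2, 4, 6 and 8 h. Each point is 1 gene in 1 pair of libraries, colour and shape give the time point, genes are ordered by their mean level and dashed lines mark 1.5-fold in either direction. Slc7a7 (0.66) and Slc6a15 (-0.74) pass the lines at 4 h and Slc18a1 (1.03) at 6 h, and the 4 h points are spread the most.

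At a limit of 1.3-fold, 1 gene was higher and 1 lower at 2 h (Slc7a4, under 1 FPKM, and Slc18a1), beside 1.61% and 3.3% of all genes. At 4 h 2 were higher (Slc7a7 and Slc7a11) and 2 lower (Slc6a15 and Slc36a1), beside 6.61% and 14.5%. At 6 h Slc18a1 alone was higher, beside 5.14% of all genes that were higher and 1.81% that were lower. At 8 h no gene passed, beside 3.72% and 1.48%.

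Slc7a7 (ENSMUSG00000000958, mm9 chromosome 14, 54989128 to 55032856) had 1.56, 2.72, 6.14 and 4.44 FPKM with DMSO and 1.89, 4.87, 5.99 and 5.45 FPKM with HU210. Both 2 h libraries were lowest and both 6 h libraries highest. The 4 h libraries differed, with HU210 within the values of 8 h and DMSO below them, a log2(fold change) of 0.66. With the 4 DMSO libraries averaged as the reference, the 4 h HU210 library was higher by 0.42. With those of 2, 6 and 8 h it was higher by 0.34, and both values were below 1.5-fold. Such averages mix time points between which Slc7a7 itself changed. With all 4 averaged, HU210 came to -0.60 at 2 h and 0.67 at 6 h, where the pairs gave 0.18 and -0.031. The 4 h DMSO level of 2.72 FPKM lay between those of 2 h and 6 h. The smaller values therefore cannot tell whether that library was unusual for Slc7a7. Whether the position of the 4 h DMSO library has a part in the difference was not tested.

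Slc6a15 (ENSMUSG00000019894, mm9 chromosome 10, 102830477 to 102882011), a neuronal carrier of branched-chain amino acids and proline, had 18.2, 21.8, 12.9 and 14.8 FPKM with DMSO and 16.0, 12.7, 16.6 and 16.4 FPKM with HU210. The 4 h DMSO library held the highest of the 8 values and the 4 h HU210 library the lowest, a log2(fold change) of -0.74. With all 4 DMSO libraries averaged as the reference it was -0.37, and with those of 2, 6 and 8 h it was -0.24. The 6 h DMSO library was nearly as low as the 4 h HU210 library. The difference at 4 h was thus about as wide as the range among the DMSO libraries, but the 4 h DMSO library tops both. Without it the DMSO libraries lay between 12.9 and 18.2 FPKM.

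For Slc18a1, described above among the vesicular carriers, the log2(fold change) at 6 h was 1.03, and the 6 h HU210 library with 4.03 FPKM lay above all other libraries. With all 4 DMSO libraries averaged it was still 0.76. At 2 h and 4 h the log2(fold change) of Slc18a1 was -0.42 and -0.31, so the sign differed between time points. Slc7a11 (ENSMUSG00000027737, mm9 chromosome 3, 50168858 to 50247535) lay just under the limit at 4 h, with a log2(fold change) of 0.58 where 1.5-fold is 0.585. It had 48.9, 31.8, 46.2 and 48.3 FPKM with DMSO and 58.3, 48.2, 46.5 and 47.5 FPKM with HU210. The 4 h DMSO library alone was low, the other 7 libraries lying between 46.2 and 58.3 FPKM, and without it the log2(fold change) at 4 h was 0.011.

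Medians over the 26 genes followed those of all detected genes. The median log2(fold change) at 2, 4, 6 and 8 h was -0.0097, -0.058, 0.071 and 0.072, beside -0.051, -0.083, 0.063 and 0.045 over all genes. HU210 was the higher of the pair for 13, 11, 19 and 18 of the 26 genes, beside 36.1%, 40.9%, 65.5% and 62.6% of all genes. The median size of the change regardless of sign was 0.095, 0.23, 0.094 and 0.098, beside 0.10, 0.24, 0.12 and 0.10 over all genes. The 4 h pair therefore differed most for the carriers and for all genes. Slc3a2 and Slc17a5 were higher with HU210 at all 4 time points, which is 2 of 26 genes beside 4.5% of all genes, and 0 were lower at all 4, beside 3.43%. The log2(fold change) of Slc3a2 was 0.065, 0.054, 0.021 and 0.037, and that of Slc17a5 was 0.072, 0.36, 0.27 and 0.0025.

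A difference between HU210 and DMSO common to the 4 time points was tested with limma on log2(FPKM + 1), with the time points as blocks and all 11311 genes in the fit. Adjusted p reached 0.05 for 0 of 26 carriers and for 0% of all genes. At an unadjusted p under 0.05 there were 0 carriers and 148 genes in all, 1.31%. The estimates ranged from -0.16 for Slc36a1 to 0.26 for Slc7a7, whose 95% interval ran from -0.036 to 0.56 (SE 0.12, limma adjusted p = 1.0). Without the 4 h libraries the estimate was 0.13 for Slc7a7 and -0.051 for Slc36a1, and without the 6 h libraries it was -0.29 for Slc36a1. Slc7a11 followed with 0.20 (-0.086 to 0.49), or 0.078 without the 4 h libraries, and Slc17a5 with 0.18 (-0.043 to 0.40), or 0.11 without them. The interval of Slc3a2 was narrower, from -0.13 to 0.22 around 0.044. The widest intervals were those of Slc18a1, from -0.47 to 0.70 around 0.12, and Slc6a15, from -0.54 to 0.32 around -0.11. Both genes passed 1.5-fold at a single time point. With 3 residual degrees of freedom the intervals also reach past 1.3-fold for carriers such as Slc7a7, Slc7a11 and Slc36a1. A p above the threshold does not show that the levels were alike.

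The time points also give the levels over the hours that follow 16 h of starvation, in both groups. The hour and the preparation of the libraries cannot be told apart. A slope per hour was fitted with limma over the same 11311 genes, with the treatment as a term. Adjusted p reached 0.05 for 0 carriers and 0% of all genes, and an unadjusted p under 0.05 was seen for 2 carriers, Slc7a7 and Slc43a2, beside 1318 genes in all, 11.7%. The slope of Slc7a7 was 0.20 log2 units per hour (SE 0.048, 95% interval 0.090 to 0.31, limma adjusted p = 0.29), with 0.21 in the DMSO libraries and 0.19 in the HU210 libraries. Its slope was 0.086 without the 2 h libraries and 0.34 without the 8 h libraries. The slope of Slc43a2 was 0.047 (SE 0.015, 95% interval 0.013 to 0.082, limma adjusted p = 0.33), and 0.028 after removal of the GC content and length trend. Slopes were positive for 17 of 26 carriers, with a median of 0.016 beside -0.0012 over all genes. After removal of the GC content and length trend, 15 were positive and the median was 0.0082. Whether the carriers rose as a set was not tested.

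**Figure D3:**
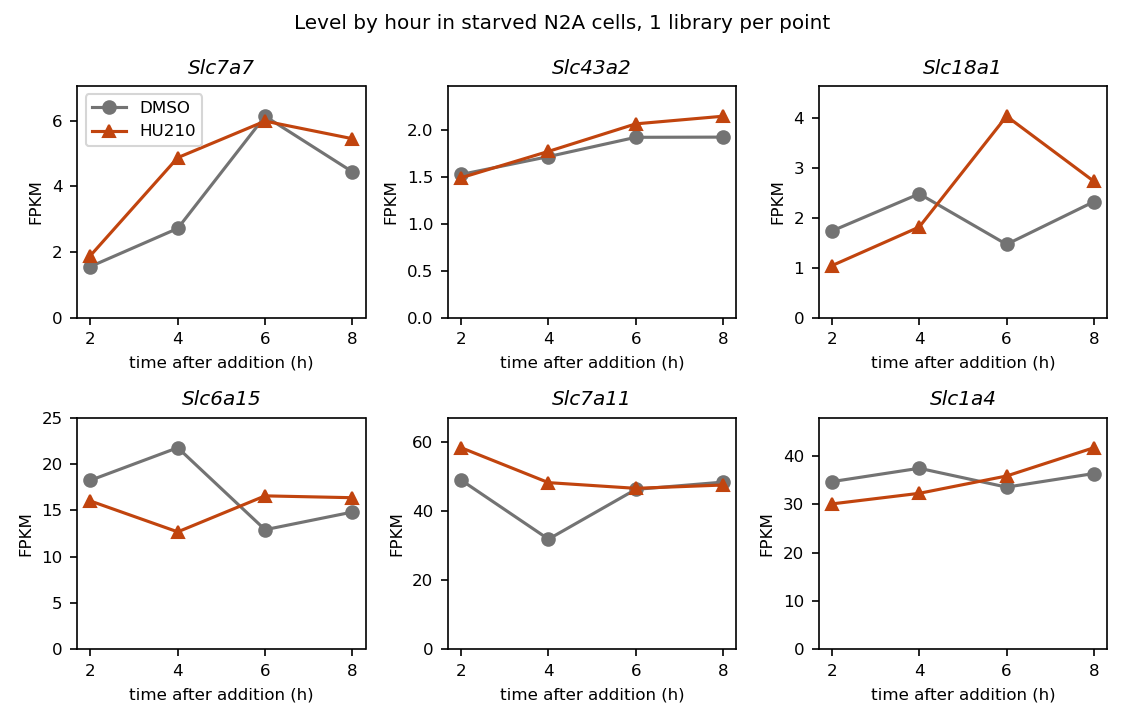
FPKM of 6 genes named in the text at 2, 4, 6 and 8 h, with 1 library per point, DMSO and HU210 drawn as separate lines and the vertical axis starting at 0. Slc7a7 is lowest at 2 h in both groups, the 4 h DMSO library is low for Slc7a11 and high for Slc6a15, and Slc18a1 peaks in the 6 h HU210 library.

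A difference between the slopes of the 2 groups reached an adjusted p of 0.05 for 0 carriers and 0% of all genes, and an unadjusted p under 0.05 for 0 carriers and 325 genes, 2.87%. For Slc18a1 the slope was 0.017 with DMSO and 0.17 with HU210, a difference of 0.16 per hour (SE 0.086, limma adjusted p = 0.96), which was 0.36 without the 8 h libraries and 0.10 without the 6 h libraries. For Slc1a4 it was 0.0022 with DMSO and 0.076 with HU210, a difference of 0.074 (SE 0.033, limma adjusted p = 0.96), or 0.048 with each library centred on its median. Neither difference passed the test.

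Carriers known to follow ATF4 were examined together with other genes of the amino acid response. Of 9 such carriers, 8 were listed and all 8 were detected (Slc1a4, Slc1a5, Slc3a2, Slc6a9, Slc7a1, Slc7a3, Slc7a11 and Slc38a2), while Slc7a5 was not analysed here. None passed 1.5-fold at any time point, beside 0.629% to 6.46% of all genes in a given direction. The median log2(fold change) of these 8 carriers was -0.016, 0.0017, -0.010 and 0.10 at 2, 4, 6 and 8 h. Their summed level stayed between 653 and 779 FPKM. Of 20 further genes of this response, 19 were listed and all 19 detected, with Atf4 itself at 544 FPKM and the asparagine synthetase gene Asns at 523 FPKM. Among them 1 passed 1.5-fold: Chac1, which degrades glutathione, had 42.0 FPKM with DMSO and 67.2 FPKM with HU210 at 4 h, a log2(fold change) of 0.66. Of all genes, 2.16% were higher by 1.5-fold at 4 h. The level of Chac1 in the 4 h DMSO library was the lowest of its 8 libraries. The medians of these 19 genes were -0.099, 0.16, -0.023 and 0.10.

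Since members of this list share known regulation, the start regions of the 43 genes were searched for TGATGCAA, the core of a composite element that ATF4 binds together with C/EBP proteins, on both strands. The windows run from 250 bases before to 50 bases after each start site in RefSeq (GRCm38.p6, a later build than the mm9 of the expression values). For 32 of the 43 genes 44 windows were found, and 4 windows of 3 genes, Slc7a11, Slc1a4 and Slc7a7, held the core, 2 of them overlapping windows of Slc7a7. Of all 32851 windows, 294 held it, 0.895%. The wider pattern TGATGNAA, which includes the first, occurred in 1304 windows, 3.97%, and among the carriers in the same 4. The parts of these windows around the matches are shown to give the element and its place in each of the 3 genes, with the matches in capitals and TTGCATCA being the core on the other strand.
Slc7a11 (chr3:50443593-50443739, minus strand): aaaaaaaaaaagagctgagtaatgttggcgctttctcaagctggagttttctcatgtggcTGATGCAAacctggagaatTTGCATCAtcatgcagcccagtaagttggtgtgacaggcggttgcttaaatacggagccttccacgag
Slc1a4 (chr11:20332684-20332777, minus strand): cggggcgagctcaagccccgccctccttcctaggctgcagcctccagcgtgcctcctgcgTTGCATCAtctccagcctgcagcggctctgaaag
Slc7a7 (chr14:54417915-54418005, minus strand): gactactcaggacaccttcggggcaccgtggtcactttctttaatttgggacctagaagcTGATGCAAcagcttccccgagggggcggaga
The region of Slc7a11 held 2 matches in opposite orientations with 11 bases between them, beginning 66 and 47 bases before the start site. The match of Slc1a4 began 4 bases before the start site. The match of Slc7a7 began 1 base before the start site of the window shown and 243 bases before that of its other window. A match is a description of these letters and not evidence of binding.

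The lysosomal carriers were also set beside the genes of lysosomal amino acid sensing. Of the 5 carriers 0 passed 1.5-fold at any time point, and their median log2(fold change) was 0.00072, -0.20, 0.21 and 0.0025. At 6 h all 5 were higher with HU210, where 65.5% of all genes were. All 17 listed genes of the sensing machinery were detected. At 4 h the scaffold subunit Lamtor4 was higher by 0.63, and the Rag GTPases Rragc and Rragd were lower by 0.73 and 0.77 on the log2 scale, without a replicate check. Among the transmitter enzymes Ache, which breaks down acetylcholine, was lower by more than 1.5-fold at 4 h. It had 16.3 FPKM in the 4 h DMSO library and 6.45 FPKM with HU210, while its other 6 libraries lay between 3.57 and 7.36 FPKM. For Ache the 4 h DMSO library was the one apart from the rest.

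At 4 h the change of a gene moved with the GC content of its transcript. The deviation of the 4 h DMSO library from the median of the 8 libraries had a Spearman correlation with GC content of -0.47 across genes, and that of the 4 h HU210 library one of 0.47, beside -0.18 to 0.29 in the other libraries. For the log2(fold change) at 4 h the correlation was 0.53 over 10653 genes and 0.23 over the 26 carriers, all points sharing the same pair of libraries. The median GC content of the carriers was 50.2% and that of all detected genes 50.5%. For Slc6a15, with 42.3% GC, the trend fitted on GC content and length came to -0.32 and the remaining log2(fold change) -0.41, below 1.5-fold. For Slc7a11, with 40.7% GC, the trend was -0.42 and the remaining change 0.9994, above 1.5-fold. For Slc7a7, with 51.4% GC, 0.69 remained. Slc17a5, with 45.7% GC, went from 0.36 to 0.61, past 1.5-fold. At 6 h the correlation was -0.30 over 10698 genes and -0.47 over the 26 carriers, and for Slc18a1 a log2(fold change) of 0.92 remained after the trend was removed. The part of GC content in these differences was not tested.

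**Figure D4:**
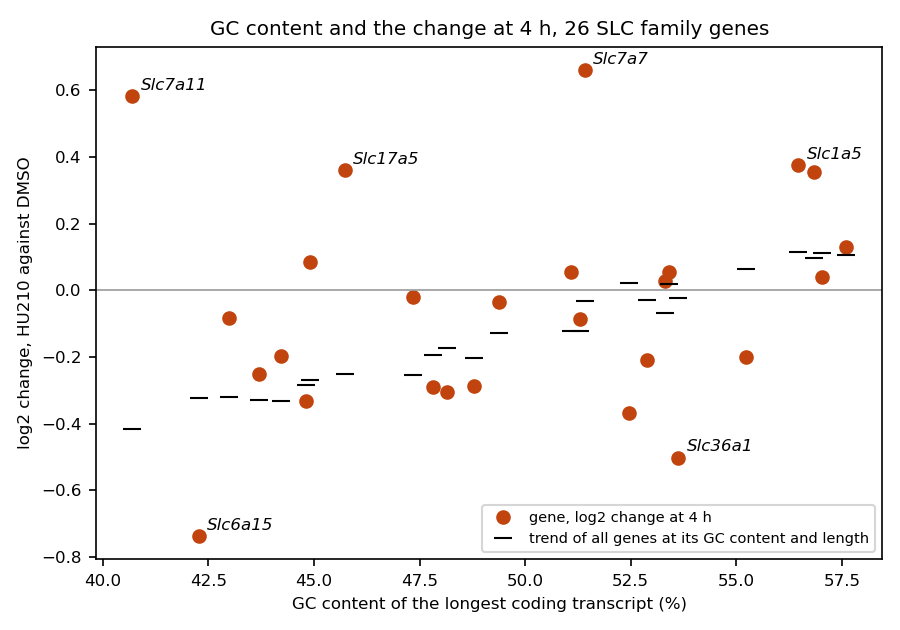
Log2(fold change) at 4 h against the GC content of the longest coding transcript in percent. Points are the 26 detected genes, and the short bar at the same GC content is the trend of all genes fitted on GC content and length. The trend rises with GC content, Slc7a11 (40.7% GC) lies far above it, Slc6a15 (42.3% GC) lies below it, and Slc7a7 (51.4% GC) lies above it.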

How the data were processed

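Poly(A) mRNA of 8 libraries of N2A cells was sequenced, 1 library for HU210 and 1 for DMSO at each of 2, 4, 6 and 8 h. According to the submitters' processing notes and methods, reads were mapped to mm9 with TopHat2 2.0.8, Bowtie2 2.1.0 and SAMtools 0.1.7, and the authors computed FPKM with Cufflinks and Cuffdiff, using upper-quartile normalization and adjusting for multi-mapping reads and for fragment bias. The Cufflinks version is not given in the sources used here. The authors deposited FPKM with 1 added, which was subtracted here. Deposited columns of the authors' own comparisons (log2 ratios, p-values and q-values) and their table of differentially expressed genes were not used.

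Log2(fold change) used a pseudocount of 1, and 1.5-fold or 1.3-fold was used to name genes at a single time point. Values were joined by symbol, and 6 symbols had different gene identifiers at different time points. The limma 3.58.1 fits (R 4.3.3, empirical Bayes with a trend, Benjamini-Hochberg adjustment) used the 11311 genes listed in all 8 libraries with a mean of at least 1 FPKM, and were tested on simulated data. Since each library stands for a time point, their p-values treat time points as replicates, and the spread they measure includes differences between time points. GC content and length are those of the longest coding transcript in GENCODE vM1, which is on mm9, and were found for all 43 genes and 93.6% of detected genes. Loess trends had a span of 0.3 and a degree of 1. Other steps used Python 3.11.15, numpy 2.4.6, pandas 2.3.3 and matplotlib 3.10.9.

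The genes and the lists were chosen with earlier results of these data known. Values in all 8 libraries are given for carriers past 1.5-fold with at least 1 FPKM in both libraries of a pair, for the most abundant carrier of each family and for the detected carriers of the amino acid response. Other detected carriers may be named, as may carriers of transmitters and genes of the other lists past 1.5-fold. The level of other genes is named as a check of the cell type or of a list.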

Additional observations from a re-analysis of the deposited data

How the results depend on the processing

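The counts past 1.5-fold at a time point are over the 43 genes, detected or not. They rest on single genes and moved with the processing. All stayed as reported when only genes with at least 1 FPKM in both libraries of a pair were counted. The alternatives below keep genes under 1 FPKM. With a pseudocount of 0.1, the count was 1 higher and 1 lower at 2 h (0 and 0 as reported), 2 higher at 4 h (1 as reported), 1 lower at 6 h (0 as reported), and 2 higher and 1 lower at 8 h (0 and 0 as reported). Against the mean of the 4 DMSO libraries, 1 was lower at 2 h, 0 were higher and 0 lower at 4 h, and 2 were higher at 6 h. The gene lower at 2 h was Slc7a7 (-0.60), and those higher at 6 h were Slc18a1 (0.76) and Slc7a7 (0.67). Within its pairs Slc7a7 differed by only 0.18 at 2 h and -0.031 at 6 h. Its level was lowest at 2 h and highest at 6 h in both groups, which this reference takes in. After removal of the GC content and length trend, 3 were higher (Slc7a11, Slc7a7 and Slc17a5) and 0 lower at 4 h. With the median ratio of each pair set to 0 on the log2 scale, 2 were higher at 4 h. Without the 4 h DMSO library, an alternative added after seeing the data, 0 were higher and 0 lower at 4 h. The reference left, the DMSO libraries of 2, 6 and 8 h, also takes in the change of Slc7a7 between time points. At 1.3-fold, 1 was higher and 1 lower at 2 h and 2 were higher and 2 lower at 4 h. The changes of Slc7a7 and Slc6a15 at 4 h and of Slc18a1 at 6 h kept their sign in each alternative. The limma counts of carriers were 0 in each alternative, 0 to 0 with a time point left out, as were the counts over all genes, so these counts say nothing about stability. Per hour, the slope of Slc7a7 ranged from 0.086 to 0.34 (limma adjusted p 0.15 to 1.0) and that of Slc43a2 from 0.028 to 0.070 (limma adjusted p 0.21 to 1.0). The cause of these changes was not tested. Depth per gene is unknown, and 1 library per condition limits each comparison at a time point to a description. The labels carry no replicate numbers, and the libraries of a time point were paired in the limma test of HU210 by taking the time points as blocks.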
